A study of Mus musculus with 7 samples.

Results

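The SLC25 family holds the solute carriers of the mitochondrial inner membrane, and its messenger RNAs were measured on 1-colour Agilent arrays of hearts from adult female mice. Members were all genes whose name on the array was Slc25a followed by a number, which matched 47 genes with 104 probes. Each gene was represented by the probe whose mean signal over the 7 arrays was highest. Of the 47 genes, 43 passed the filter on dim probes and were tested among 22971 genes in all. The other 4, Slc25a21, Slc25a31, Slc25a41 and Slc25a54, had no probe well above background on at least 3 arrays.

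The study asked how gene expression in the adult mouse heart differs when Brg1 and Brm are both lost. Each SWI/SNF complex, which slides or evicts nucleosomes, is driven by either Brg1 (encoded by Smarca4) or Brm (encoded by Smarca2). The knockout group of 4 samples (Mutant_175, Mutant_182, Mutant_187, Mutant_188) came from hearts labelled Tg, with both genes knocked out per the labels. Per the design text, Brg1 was deleted by tamoxifen in animals already null for Brm, through a tamoxifen-dependent Cre driven by an MHC promoter (MHC, myosin heavy chain, is active in cardiomyocytes). The 3 wild type samples, Wild Type_181, Wild Type_183 and Wild Type_189, came from hearts labelled NTg. Both groups received tamoxifen. Whether the wild type animals carry Brm and Cre is not stated in the labels, so the loss of Brg1, the loss of Brm and any difference in Cre cannot be told apart. Samples are labelled as cardiomyocytes and their source as heart, and RNA was extracted with a tissue kit. Fewer cells of a type and less RNA per cell cannot be told apart in such bulk samples. Nothing beyond the sample numbers says whether the arrays hold separate animals, and the p-values describe how much these samples vary, which may be technical. With so few arrays every value has limited precision.

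SLC25 carriers exchange or carry metabolites between the cytosol and the mitochondrial matrix, and a few members sit in other membranes. They export ATP in exchange for ADP, import the phosphate and the fatty acyl groups that the matrix needs, and move amino acids, carboxylates, cofactors and iron. The heart makes most of its ATP by oxidative phosphorylation, for which the ADP/ATP and phosphate carriers supply the substrates of ATP synthase.

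RefSeq promoter sequences of assembly GRCm38.p6, each of 300 bases with 250 before and 50 after the annotated start, were matched to 36 of the 47 genes (46 promoters). The promoters of both pyrimidine nucleotide carriers and both aspartate-glutamate carriers are shown because, at their brightest probes, each of these pairs changed unequally between knockout and wild type hearts. They are written 5′ to 3′ on the gene's strand, all minus, and capitals mark CACGTG, the E-box hexamer. The windows are chr4:149774218-149774517 for Slc25a33, chr9:97110992-97111291 for Slc25a36, chr6:6217124-6217423 for Slc25a13 and chr2:71367706-71368005 for Slc25a12.
Slc25a33: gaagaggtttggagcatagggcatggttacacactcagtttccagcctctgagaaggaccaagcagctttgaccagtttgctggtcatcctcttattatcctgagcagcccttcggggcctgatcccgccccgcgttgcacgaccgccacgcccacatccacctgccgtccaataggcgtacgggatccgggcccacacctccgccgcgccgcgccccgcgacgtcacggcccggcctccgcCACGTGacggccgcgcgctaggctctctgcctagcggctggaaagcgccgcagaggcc
Slc25a36: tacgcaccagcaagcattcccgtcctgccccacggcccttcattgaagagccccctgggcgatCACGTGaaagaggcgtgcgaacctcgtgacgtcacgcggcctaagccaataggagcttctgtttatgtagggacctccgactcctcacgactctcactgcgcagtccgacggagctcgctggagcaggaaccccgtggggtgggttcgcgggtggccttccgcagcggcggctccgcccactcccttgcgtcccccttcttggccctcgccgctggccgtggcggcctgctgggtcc
Slc25a13: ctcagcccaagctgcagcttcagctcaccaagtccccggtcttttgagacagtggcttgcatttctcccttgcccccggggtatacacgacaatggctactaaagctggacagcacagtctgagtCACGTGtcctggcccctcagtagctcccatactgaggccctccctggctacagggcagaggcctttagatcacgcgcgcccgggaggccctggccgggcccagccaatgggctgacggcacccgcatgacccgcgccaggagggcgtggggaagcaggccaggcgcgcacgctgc
Slc25a12: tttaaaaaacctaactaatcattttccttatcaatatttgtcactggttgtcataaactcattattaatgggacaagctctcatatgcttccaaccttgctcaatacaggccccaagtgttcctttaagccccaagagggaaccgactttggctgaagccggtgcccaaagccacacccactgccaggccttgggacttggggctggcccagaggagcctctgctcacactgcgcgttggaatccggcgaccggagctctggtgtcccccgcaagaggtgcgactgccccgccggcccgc

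CACGTG began at position -8 from the annotated start in Slc25a33, at -187 in Slc25a36 and at -125 in Slc25a13, and these letters are not in the Slc25a12 window. Over the family CACGTG stood in 8 of 46 promoters (17.4%), against 7.15% of all 32851 promoters of the same length. Overlapping Slc25a14 promoters hold the same hexamer, at -54 and at -184, so that site is counted more than once among the 8. By genes, CACGTG stood in 7 of 36 genes with a promoter. It stood in 2 of the 14 that were lower in knockout, 0 of the 3 that were higher and 4 of the 16 not called, and the rest had no test. The hexamer and 3 other motifs were searched on both strands, and their letters do not contain one another. CCGGAAGT, an ETS-type motif, stood in 1 family promoter, that of Slc25a20, and in 3.89% of all promoters. The NRF1 motif and TCAAGGTCA, an ERR-type motif, stood in 0 family promoters, and in 0.971% and 0.423% of all promoters. Each match describes the letters only.

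Signals are given as the processed signal divided by the same array's 75th percentile, in the order Mutant_175, Mutant_182, Mutant_187 and Mutant_188, then Wild Type_181, Wild Type_183 and Wild Type_189. Levels of different probes are not comparable, so no gene's level is set against another's, and the sums over marker lists given below weight the brightest probes most. Each difference is a log2 value, knockout minus wild type, with adjusted p-values from limma over all genes tested (Benjamini-Hochberg, threshold 0.05). Between 58.1% and 63.6% of spots were well above background on each array, and 0 spots were saturated. Smarca4 had 5.87, 10.26, 14.95 and 8.25 in knockout hearts, against 34.7, 32.8 and 34.2 in wild type hearts, a difference of -1.87 (SE 0.29, adjusted p = 0.0021, limma). Smarca2 differed by 0.08 (SE 0.11, adjusted p = 0.59, limma), and whether its probes lie in the deleted part is not known. All 9 cardiomyocyte markers were well above background, and 7 of the 9 were lower in knockout hearts, with a median difference of -0.79. Their summed signal was 2160 to 2821 in knockout hearts and 4781 to 5198 in wild type hearts. Of 7 fibroblast markers 6 were higher, with sums of 522 to 655 in knockout and 282 to 309 in wild type hearts. Of 7 macrophage markers 4 were higher, with sums of 109 to 211 in knockout and 101 to 112 in wild type hearts. Of 6 endothelial markers 2 were lower (24.6 to 40.0 in knockout, 40.5 to 44.3 in wild type), and of 5 smooth muscle and pericyte markers 1 was higher (43.9 to 68.2 in knockout, 46.3 to 52.6 in wild type). For every marker list, the shares over all genes tested were 25.8% lower and 16.3% higher. The endothelial share lower (33.3%) and the smooth muscle and pericyte share higher (20.0%) lie near these. Of 3 lymphocyte markers tested 2 were higher (2.56 to 5.81 in knockout, 1.496 to 1.68 in wild type), and Cd79a and Ms4a1 did not pass the filter. Of 4 erythroid markers tested 0 were called (330.4 to 1007 in knockout, 643 to 721 in wild type). Of 3 brown fat markers tested 1, Cidea, was higher (101 to 195 in knockout, 17.0 to 23.2 in wild type, as sums over the list), and Ucp1 did not pass the filter. The part of these cell type markers in the differences below was not tested.

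Members of the SLC25 family were lower in knockout hearts more often than higher, an order that turned round when arrays were scaled to spike-in RNA (6 lower, or 13.95%, and 14 higher, or 32.6%, against 7.44% lower and 37.2% higher over all genes). Of the 43 genes tested, 19 were lower (44.2%), 4 were higher (9.3%) and 20 were not called. Over all genes tested 25.8% were lower and 16.3% were higher, 42.1% in all. The groups of arrays did not overlap for 28 of the 43 members (65.1%), against 51.2% of all genes, and in 24 of them knockout was the lower group (55.8%, against 31.6% of all genes). In 4 members knockout was the higher group without overlap (9.3%, against 19.6%). The median difference was -0.36 over the members tested and -0.12 over all genes tested, and the members' median reversed to 0.20 with that scaling, which adds 0.57 to every gene with a value on all arrays. Members called lower by at least 2-fold numbered 7 (16.3%, against 9.99% of all genes), and 1 was called higher by at least 2-fold (2.33%, against 8.47%). A total of 6 lower calls (Slc25a2, Slc25a13, Slc25a26, Slc25a29, Slc25a33 and Slc25a42) were made under every alternative setting that gave a value, spike-in scaling included. So were 3 higher calls (Slc25a24, Slc25a40 and Slc25a45). Slc25a2 had a value in only 16 of the 17 alternatives, because the stricter filter dropped it. It was well above background on 3 wild type arrays but only 1 knockout array, and gave -0.57 with normexp. The 7 members lower by at least 2-fold include Slc25a2.

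**Figure D1:**
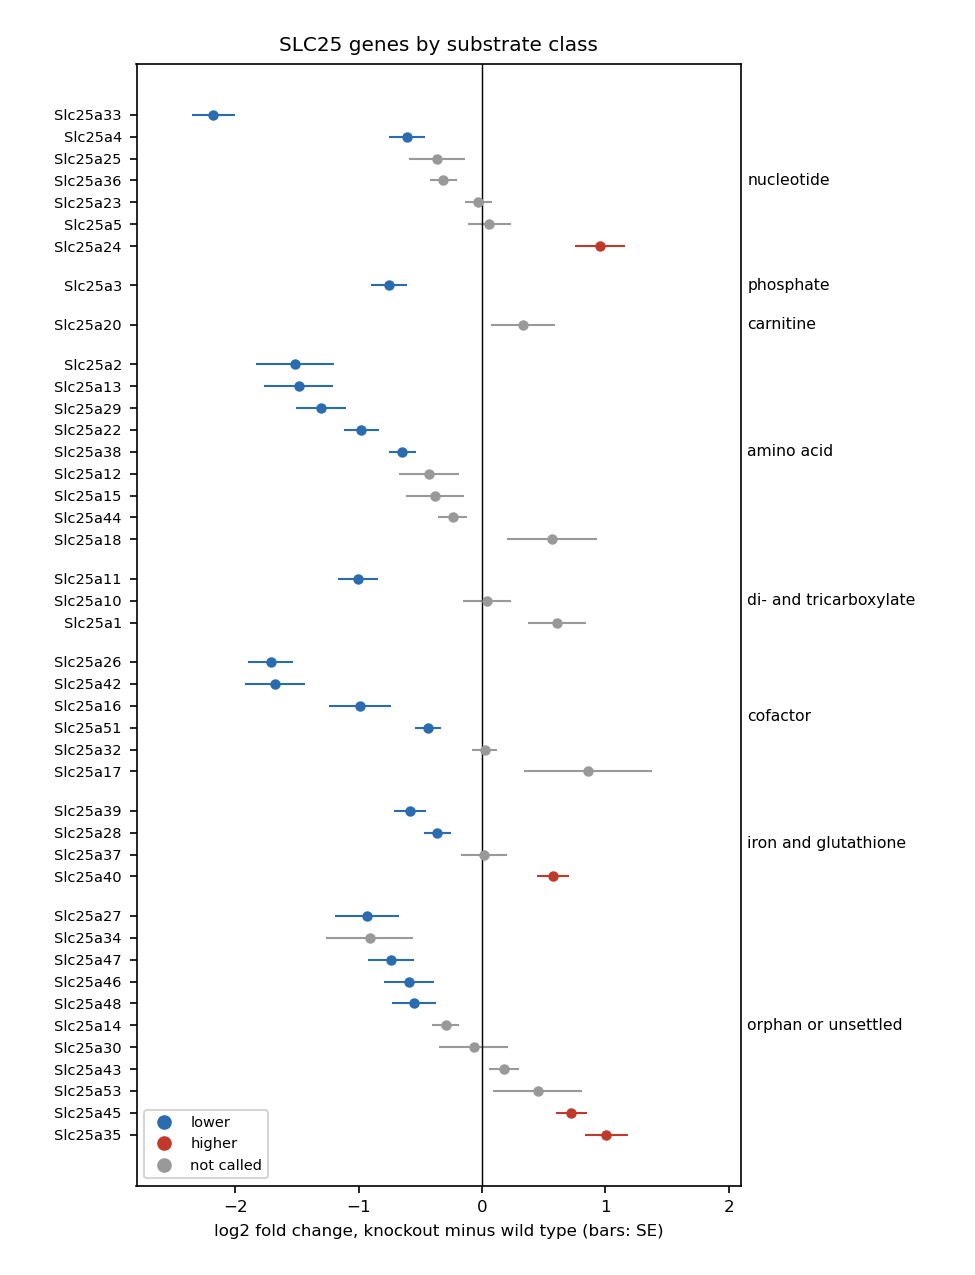
The log2 difference, knockout minus wild type, of the SLC25 genes tested and named here is plotted with its standard error on the x axis, and the genes are grouped by substrate class on the y axis. Blue points are the 19 genes lower in knockout, red points the 4 genes higher and grey points are not called; Slc25a33 lies farthest left at -2.18 and Slc25a35 farthest right at 1.01. Scaled to spike-in RNA, all points move right by 0.57 and 14 genes are called higher and 6 lower.

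Among the nucleotide carriers, 2 of the 7 tested were lower, 1 was higher and 4 were not called, with a median difference of -0.31. Both counts were near the shares over all genes tested, 25.8% lower and 16.3% higher. Slc25a33, a pyrimidine nucleotide carrier, had signals of 5.06, 6.36, 5.12 and 7.18 in knockout hearts, against 22.6, 27.1 and 30.4 in wild type hearts. The groups lay far apart, and the difference of -2.18 (SE 0.17, adjusted p = 0.00012, limma) was a 4.52-fold lower signal. Its probe lies on chromosome 4, 149118713 to 149118772 of build mm9, minus strand. No annotation of build mm9 was used here, so the exon or untranslated region under each probe is not given.

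Of the ADP/ATP carriers, 1 was lower and 1 was not called. Slc25a4, the main ADP/ATP carrier isoform of heart, had 646, 542, 528 and 716 in knockout hearts, against 893, 992 and 876 in wild type hearts (chromosome 8, 47292828 to 47292887). Every knockout array was below every wild type array, and the difference was -0.61 (SE 0.14, adjusted p = 0.012, limma). The call was lost without Wild Type_183 (-0.55, adjusted p = 0.056) and after quantile normalization (-0.04, adjusted p = 0.76). It was also lost with normexp and under spike-in scaling (-0.04, adjusted p = 0.85, limma). Slc25a5, the isoform found in most tissues, had 63.5, 40.5, 46.9 and 41.2 in knockout hearts, against 44.2, 47.3 and 44.4 in wild type hearts (chromosome X, 34338561 to 34338620). The groups overlapped, and the difference was 0.06 (SE 0.17, adjusted p = 0.80, limma); without Mutant_175, the highest array, it turned to -0.08 (adjusted p = 0.54). Slc25a31, an isoform known from the male germ line, was well above background on 0 knockout and 2 wild type arrays and was not tested.

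The ATP-Mg/phosphate carriers exchange adenine nucleotide for phosphate. Slc25a24 had 1.48, 2.34, 2.52 and 2.12 in knockout hearts, against 0.981, 1.01 and 1.24 in wild type hearts (chromosome 3, 108971266 to 108971325). All knockout arrays were above all wild type arrays, with Mutant_175 the nearest, and the difference was 0.96 (SE 0.20, adjusted p = 0.0078, limma). The other members of this group gave -0.03 (Slc25a23, adjusted p = 0.85) and -0.36 (Slc25a25, adjusted p = 0.23), and neither was called. Without Wild Type_181, the lowest wild type array for Slc25a25, that gene was lower at -0.63 (adjusted p = 0.036). Slc25a41 was well above background on 1 knockout array, Mutant_187, and on 0 wild type arrays, and was not tested. Slc25a36, the other pyrimidine nucleotide carrier, had knockout signals of 2.46 to 2.62 and wild type signals of 2.92 to 3.51, which did not overlap, and its difference of -0.31 missed the threshold (adjusted p = 0.052). Without Mutant_175 it was -0.33 and called (adjusted p = 0.044). Its other probes that passed the filter gave 0.09, -0.72 and -0.47 (adjusted p over all probes 0.64, 0.020 and 0.30), so the Slc25a36 value depends on the probe.

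Slc25a3, the mitochondrial phosphate carrier and the only member of its class, was lower in knockout hearts. Its signals were 166, 126, 115 and 143 in knockout hearts, against 239.9, 217 and 232 in wild type hearts (chromosome 10, 90580961 to 90581502). The groups did not overlap and the difference was -0.75 (SE 0.15, adjusted p = 0.0058, limma). Its other probe gave -0.88. Scaled to spike-in RNA the difference was -0.19 and was not called (adjusted p = 0.43).

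Slc25a20, the carnitine-acylcarnitine carrier that brings fatty acyl groups into the matrix, was not called. It had 11.4, 5.51, 5.54 and 6.23 in knockout hearts, against 5.78, 5.35 and 5.16 in wild type hearts (chromosome 9, 108585399 to 108585458). Mutant_175 stood above all other arrays, and the other knockout arrays overlapped the wild type arrays. The difference was 0.33 (SE 0.26, adjusted p = 0.34, limma), and 0.09 without Mutant_175 (adjusted p = 0.53).

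**Figure D2:**
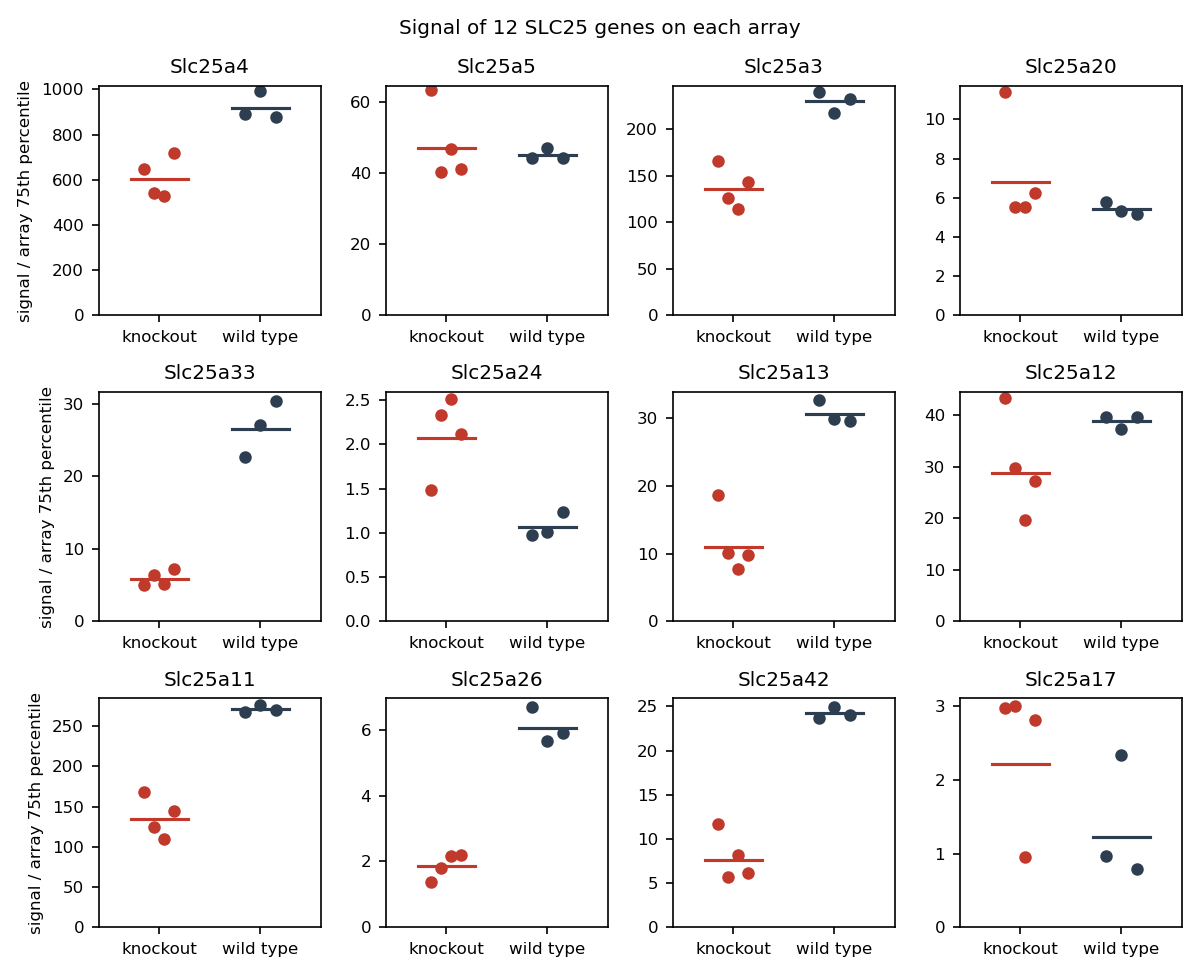
Signal of 12 SLC25 genes on each array, divided by the array's 75th percentile, is plotted on linear y axes that start at 0, with knockout arrays in red on the left and wild type arrays in dark blue on the right of each panel. Points are arrays and horizontal lines are group means taken on the log2 scale. The 4 knockout arrays of Slc25a33 lie between 5.06 and 7.18, below the 3 wild type arrays at 22.6 to 30.4, and 1 knockout array of Slc25a20 (11.4) and 1 of Slc25a17 (0.950) stand apart from the rest of their group.

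The amino acid carriers had 5 of 9 members lower, 0 higher and 4 not called, with a median difference of -0.65. Over all genes tested 25.8% were lower and 16.3% higher. Slc25a13 and Slc25a12 are the calcium-sensitive aspartate-glutamate carriers of the malate-aspartate shuttle. Slc25a13 (citrin) had 18.7, 10.2, 7.75 and 9.78 in knockout hearts, against 32.7, 29.9 and 29.7 in wild type hearts (chromosome 6, 5991482 to 5991541). All knockout arrays were lower, Mutant_175 least, and the difference was -1.49 (SE 0.28, adjusted p = 0.0049, limma). Slc25a12 (aralar) had 43.3, 29.8, 19.7 and 27.2 in knockout hearts, against 39.6, 37.4 and 39.6 in wild type hearts (chromosome 2, 71112979 to 71113038). Mutant_175 exceeded the wild type arrays and the other knockout arrays lay below them, and the difference of -0.43 was not called (SE 0.25, adjusted p = 0.20, limma). Without Mutant_175 Slc25a12 was lower at -0.62 and called (adjusted p = 0.022). Of its 6 probes, 2 assigned to another transcript gave -1.29 and -1.25 (adjusted p over all probes 0.0018 and 0.0061), so the Slc25a12 value depends on the probe. The other Slc25a13 probe gave -0.61 and was not called (adjusted p over all probes 0.14).

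Slc25a29, a carrier of basic amino acids, had 0.618, 0.620, 0.389 and 0.696 in knockout hearts, against 1.47, 1.34 and 1.40 in wild type hearts (chromosome 12, 110064375 to 110064434). The groups did not overlap, and the difference was -1.30 (SE 0.20, adjusted p = 0.0022, limma). Slc25a2, an ornithine carrier, had 0.0149, 0.0331, 0.0225 and 0.0369 in knockout hearts, against 0.0622, 0.0703 and 0.0858 in wild type hearts (chromosome 18, 37797118 to 37797177). It was well above background on only 1 knockout array, so the size of its difference of -1.51 (SE 0.32, adjusted p = 0.0075, limma) is uncertain. The remaining lower genes were Slc25a22, a glutamate carrier (-0.98, adjusted p = 0.0017), and Slc25a38, a glycine carrier needed for heme synthesis (-0.65, adjusted p = 0.0034), and neither overlapped between groups. Slc25a15, the other ornithine carrier, gave -0.38, Slc25a44, a carrier of branched-chain amino acids, gave -0.24, and Slc25a18, a glutamate carrier, gave 0.57, none of them called (adjusted p = 0.23, 0.15 and 0.25).

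Of the di- and tricarboxylate carriers, Slc25a11, the 2-oxoglutarate/malate carrier of the malate-aspartate shuttle, was lower and the others were not called. Slc25a11 had 168, 124, 109.6 and 145 in knockout hearts, against 267, 276 and 269.8 in wild type hearts (chromosome 11, 70457739 to 70457798). Knockout signals were all far below wild type signals, and the difference was -1.01 (SE 0.16, adjusted p = 0.0023, limma), or 2.01-fold lower. Slc25a1, the citrate carrier, had 0.635, 1.03, 1.28 and 0.932 in knockout hearts, against 0.680, 0.637 and 0.540 in wild type hearts, where only Mutant_175 overlapped the wild type range. Its difference of 0.61 was not called (SE 0.23, adjusted p = 0.072, limma), and without Mutant_175 it was 0.80 and called (adjusted p = 0.0069). The other Slc25a1 probe gave -0.10, and the mean over both probes 0.25 (adjusted p = 0.30). Slc25a10, the dicarboxylate carrier, gave 0.04 (adjusted p = 0.89), and it turned to between -0.15 and -0.01 without Wild Type_183, Mutant_175 or Mutant_188. Slc25a21, an oxodicarboxylate carrier, was well above background on 0 arrays.

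Among the cofactor carriers 4 of 7 were lower, 0 were higher and 3 were not called, with a median difference of -0.44. The shares over all genes tested were 25.8% lower and 16.3% higher. Slc25a26, which brings S-adenosylmethionine into the matrix, had 1.38, 1.80, 2.17 and 2.18 in knockout hearts, against 6.69, 5.65 and 5.89 in wild type hearts (chromosome 6, 94554505 to 94554564). The groups were well separated, and the difference was -1.71 (SE 0.18, adjusted p = 0.00042, limma). Its other probes gave -1.29 and -0.99.

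Slc25a42, a coenzyme A carrier, had 11.6, 5.66, 8.14 and 6.17 in knockout hearts, against 23.7, 25.0 and 24.0 in wild type hearts (chromosome 8, 72708298 to 72708357). All knockout arrays were below the wild type arrays, and the difference was -1.68 (SE 0.25, adjusted p = 0.0016, limma). Slc25a16, also linked to coenzyme A transport, had 1.07, 0.600, 0.494 and 0.700 in knockout hearts, against 1.46, 1.37 and 1.27 in wild type hearts (chromosome 10, 62408580 to 62408639). The groups did not overlap, with Mutant_175 nearest to wild type, and the difference was -0.99 (SE 0.25, adjusted p = 0.017, limma). That call was lost without Wild Type_181 (-0.94, adjusted p = 0.058) and without Wild Type_183 (-0.99, adjusted p = 0.056). It was also lost under spike-in scaling (-0.42, adjusted p = 0.19, limma). The other Slc25a16 probe gave -0.27 and was not called (adjusted p over all probes 0.14).

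Slc25a51, the mitochondrial NAD carrier, was lower at -0.44 (SE 0.11, adjusted p = 0.015, limma), with 20.8 to 23.8 in knockout hearts and 28.4 to 31.2 in wild type hearts. The call was lost without Wild Type_189 (-0.39, adjusted p = 0.072), after quantile normalization (-0.22, adjusted p = 0.11) and with the mean over its probes (-0.24, adjusted p = 0.20). It was also lost with normexp and under spike-in scaling, where the sign reversed (0.13, adjusted p = 0.57, limma). The other Slc25a51 probe gave -0.05 (adjusted p over all probes 0.86). Slc25a17, a carrier of coenzyme A and other cofactors in the peroxisomal membrane, had 2.97, 2.995, 0.950 and 2.81 in knockout hearts, against 0.972, 2.33 and 0.796 in wild type hearts. Mutant_187 lay among the wild type arrays and the other knockout arrays lay above them. The difference of 0.86 was not called (SE 0.52, adjusted p = 0.22, limma), and without Mutant_187 it was 1.26 and called (adjusted p = 0.043). Slc25a32, a folate and flavin carrier, gave 0.02 (adjusted p = 0.88).

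The iron and glutathione carriers moved in both directions. Slc25a39, a mitochondrial glutathione carrier, had 27.99, 22.8, 30.8 and 26.3 in knockout hearts, against 39.5, 40.1 and 40.8 in wild type hearts (chromosome 11, 102264539 to 102264598). Its close relative Slc25a40 had 1.05, 0.804, 0.804 and 0.854 in knockout hearts, against 0.570, 0.577 and 0.605 in wild type hearts (chromosome 5, 8454558 to 8454617). Neither gene overlapped between groups, and Slc25a39 was lower at -0.58 (SE 0.13, adjusted p = 0.0096) while Slc25a40 was higher by 0.58 (SE 0.13, adjusted p = 0.0099, both limma). Scaled to spike-in RNA, Slc25a39 gave -0.014 and was not called (adjusted p = 0.96, limma), and Slc25a40 gave 1.15 (adjusted p = 0.0015, limma). Slc25a28 (mitoferrin-2), an iron importer, had 5.02, 4.57, 4.85 and 4.75 in knockout hearts, against 5.79, 6.78 and 5.96 in wild type hearts (chromosome 19, 43738444 to 43738503). It was lower at -0.36 (SE 0.11, adjusted p = 0.031, limma), a call that was lost when any single wild type array, Mutant_182 or Mutant_188 was left out (adjusted p = 0.062 to 0.13, -0.41 to -0.29). The call was also lost after quantile normalization (-0.24, adjusted p = 0.098, limma), with the percentile over probes well above background, with normexp and with no filter on dim probes. Scaled to spike-in RNA, Slc25a28 gave 0.20 and was not called (adjusted p = 0.38, limma). Slc25a37 (mitoferrin-1), the importer best known from red cell precursors, gave 0.02 (adjusted p = 0.94) and changed sign without Wild Type_183 (-0.07), Mutant_175 (-0.11) or Mutant_182 (-0.01).

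Of the 11 tested carriers with no settled substrate, 4 were lower, 2 were higher and 5 were not called, with a median difference of -0.29. Over all genes tested 25.8% were lower and 16.3% higher. Slc25a27 (also called UCP4) had 0.273, 0.213, 0.124 and 0.228 in knockout hearts, against 0.357, 0.380 and 0.417 in wild type hearts (chromosome 17, 43778901 to 43778960). It was lower at -0.93 with no overlap (SE 0.26, adjusted p = 0.024, limma). The call was lost when any wild type array was left out (-0.98 to -0.87, adjusted p = 0.055 to 0.080) and with the mean over its probes (-0.63, adjusted p = 0.13). It was also lost under spike-in scaling (-0.37, adjusted p = 0.25, limma). Slc25a47 had 0.889, 0.534, 0.578 and 0.702 in knockout hearts, against 1.04, 1.07 and 1.20 in wild type hearts (chromosome 12, 110094661 to 110094720). It was lower at -0.74 with no overlap (SE 0.19, adjusted p = 0.017, limma), and was not called without Wild Type_183 (-0.76, adjusted p = 0.052) or Wild Type_189 (-0.67, adjusted p = 0.068). Nor was it called under spike-in scaling (-0.17, adjusted p = 0.49, limma).

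Slc25a46, a member of the outer mitochondrial membrane linked to mitochondrial shape, had 11.28, 7.02, 6.40 and 7.83 in knockout hearts, against 11.52, 11.35 and 13.1 in wild type hearts (chromosome 18, 31741244 to 31741303). Mutant_175 lay just below the wild type arrays and the other knockout arrays well below them. The difference of -0.59 only just passed the threshold (SE 0.20, adjusted p = 0.049, limma) and failed it when any array other than Mutant_175 was left out (-0.63 to -0.49, adjusted p = 0.092 to 0.15). It also failed it after quantile normalization (-0.44, adjusted p = 0.10) and with the mean over its probes (-0.39, adjusted p = 0.18). The same held under spike-in scaling (-0.02, adjusted p = 0.93, limma), with the percentile over probes well above background, with normexp and with no filter on dim probes. Slc25a48 was lower at -0.55 (SE 0.18, adjusted p = 0.042, limma), and its call was lost without Wild Type_183, Wild Type_189, Mutant_182 or Mutant_187 (-0.51 to -0.44, adjusted p = 0.081 to 0.14). It was also lost with the percentile over probes well above background, with normexp, with no filter on dim probes and with the trended robust prior. Its sign reversed under spike-in scaling (0.018). Its signal was dim, with means of 0.042 in knockout and 0.061 in wild type hearts, and was well above background on only 3 knockout arrays.

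Slc25a35 and Slc25a45, neither with a settled substrate, were the higher members of this class. Slc25a35 had 1.18, 0.808, 0.867 and 0.725 in knockout hearts, against 0.454, 0.431 and 0.427 in wild type hearts (chromosome 11, 68785799 to 68785858). The groups did not overlap, and the difference was 1.01 (SE 0.17, adjusted p = 0.0033, limma). A dimmer Slc25a35 probe at 68787730 to 68787789, assigned to another transcript, was lower at -0.94 (adjusted p over all probes 0.011), and another probe gave 0.90 (adjusted p over all probes 0.11), so the direction for this gene depends on the probe. With the mean over its probes Slc25a35 gave 0.32 and was not called (adjusted p = 0.16). Slc25a45 had 1.08, 1.24, 1.43 and 1.27 in knockout hearts, against 0.761, 0.786 and 0.719 in wild type hearts (chromosome 19, 5885708 to 5885766). All knockout arrays were above all wild type arrays, the difference was 0.72 (SE 0.13, adjusted p = 0.0034, limma), and its other probe gave 0.81.

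The carriers of this class that were not called ranged from -0.91 to 0.45. Slc25a34 had 47.9, 22.5, 17.1 and 39.0 in knockout hearts, against 49.3, 53.5 and 61.6 in wild type hearts. The groups did not overlap but the knockout arrays were widely spread, and the difference of -0.91 missed the threshold (SE 0.35, adjusted p = 0.073, limma) and passed it without Mutant_175 (-1.15, adjusted p = 0.019). Slc25a14 (also called UCP5) gave -0.29 (adjusted p = 0.065), Slc25a30, its near relative, gave -0.07 (adjusted p = 0.87), Slc25a43 gave 0.18 (adjusted p = 0.27) and Slc25a53 gave 0.45 (adjusted p = 0.35). Other Slc25a30 probes that passed the filter gave 0.06 and 0.98 (adjusted p over all probes 0.87 and 0.016). The latter was dim, well above background on 2 knockout arrays and 1 wild type array. Slc25a54 was well above background on 0 arrays. Of the 23 genes called in the family, 15 had several probes that passed the filter, and in 14 of them all of these probes had the same sign, the exception being Slc25a35.

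**Figure D3:**
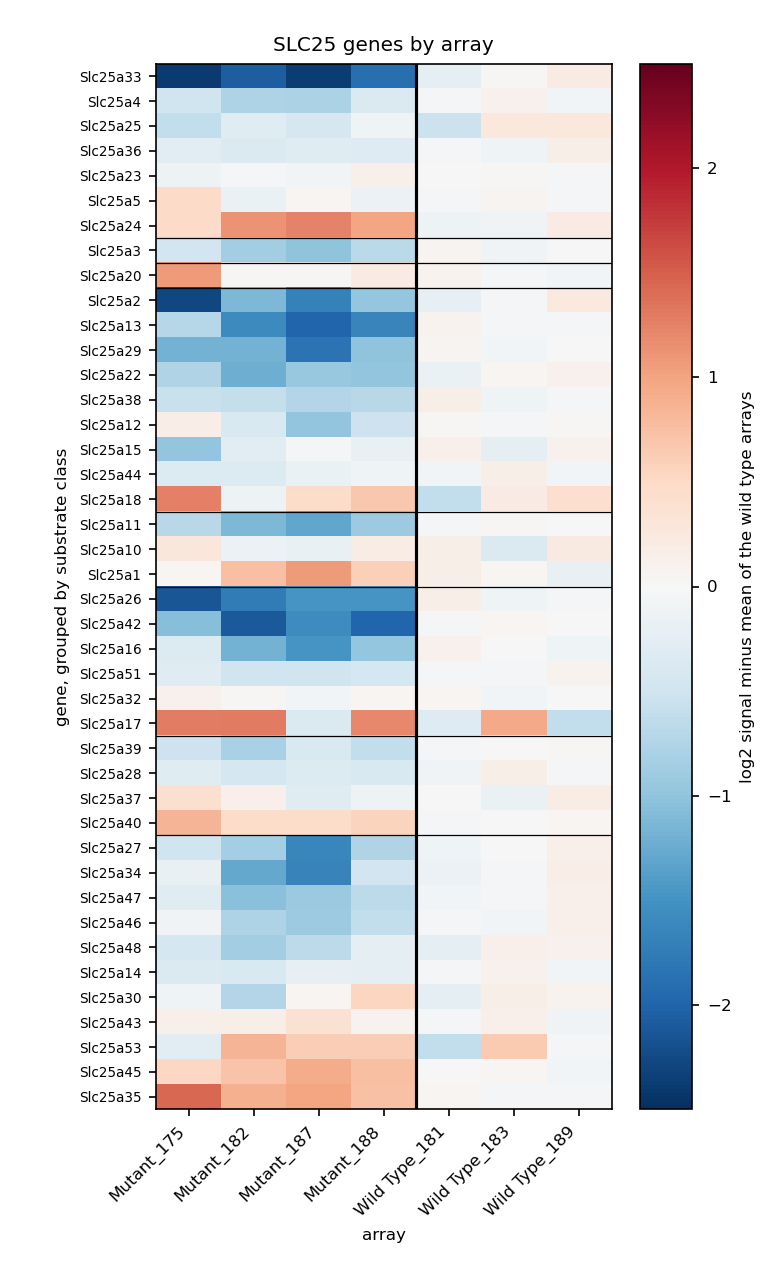
Each cell is the log2 signal of an SLC25 gene named here on an array minus the mean of the wild type arrays, with arrays on the x axis (knockout left of the vertical line, wild type right), genes by substrate class on the y axis, and blue for lower and red for higher values. The median over the 19 lower genes was -0.52 in Mutant_175 and -1.05, -1.001 and -0.75 in Mutant_182, Mutant_187 and Mutant_188, so Mutant_175 is the palest of the knockout columns for most of these genes. Values are relative to each array's 75th percentile, and spike-in scaling moves the difference between the groups up by 0.57.

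The knockout arrays were not alike across the family. Over the 19 lower genes the median shift from the wild type mean was -0.52 in Mutant_175, -1.05 in Mutant_182, -1.001 in Mutant_187 and -0.75 in Mutant_188. Over all 43 genes tested it was -0.30, -0.39, -0.36 and -0.24 in the same order. The wild type arrays had medians of -0.04, -0.01 and 0.01 over all 43. Mutant_175 was also the array in which Slc25a2 (-2.28) and Slc25a26 (-2.14) were farthest below the wild type mean, so it did not have the smaller shift in every gene. Leaving it out gave 22 lower and 5 higher members (51.2% and 11.6%), when 29.5% of all genes were lower and 19.7% higher. Leaving out Wild Type_183 gave 12 lower and 4 higher members (27.9% and 9.3%), when 17.8% of all genes were lower and 11.7% higher.

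Related carriers were compared within each array, as the log2 difference between the members of a pair, which is not affected by scaling an array by a constant. The choice of pairs was made when earlier results from these arrays were already known, which limits what their p-values can show. Of 9 pairs, 6 differed between knockout and wild type hearts at the smallest p that the 35 splits of the arrays allow (p = 0.029, exact two-sided permutation; adjusted p = 0.043 over the 9 pairs). These were Slc25a33 against Slc25a36 (difference of changes -1.86), Slc25a18 against Slc25a22 (1.54), Slc25a24 against Slc25a25 (1.32), Slc25a39 against Slc25a40 (-1.16), Slc25a12 against Slc25a13 (1.06) and Slc25a23 against Slc25a24 (-0.99). A negative value means that the gene named first changed downwards relative to its partner, and a positive value upwards. How often pairs of unrelated genes reach the same p was not tested. Complete separation of knockout from wild type signals was common, at 51.2% of single genes with a value on every array. Whether 6 of 9 exceeds the share among other gene pairs is therefore not known. Slc25a18 was well above background on only 3 knockout and 2 wild type arrays. At least 6 pairs must reach the smallest p for any to pass the adjustment, and 4 did when each gene was taken as the mean over its probes, so that 0 passed (adjusted p = 0.064).

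The ADP/ATP carriers Slc25a4 and Slc25a5 differed by -0.67 in their changes and did not pass (p = 0.057, exact permutation; adjusted p = 0.073), with a range of -0.82 to -0.56 when each array was left out, and -0.32 both after quantile normalization and with normexp. The mitoferrins Slc25a28 and Slc25a37 differed by -0.38 (-0.49 to -0.23 with each array left out, p = 0.20, exact permutation; adjusted p = 0.23). Slc25a23 and Slc25a25 differed by 0.33 (0.18 to 0.60 with each array left out, p = 0.26, exact permutation, also after adjustment). With the mean over probes these were -0.80 for the mitoferrins and 0.0063 for Slc25a23 against Slc25a25. The pairs among Slc25a23, Slc25a24 and Slc25a25 share genes and are not independent. With the mean over each gene's probes, Slc25a12 against Slc25a13 gave 0.40 (p = 0.11, exact permutation) in place of 1.06.

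**Figure D4:**
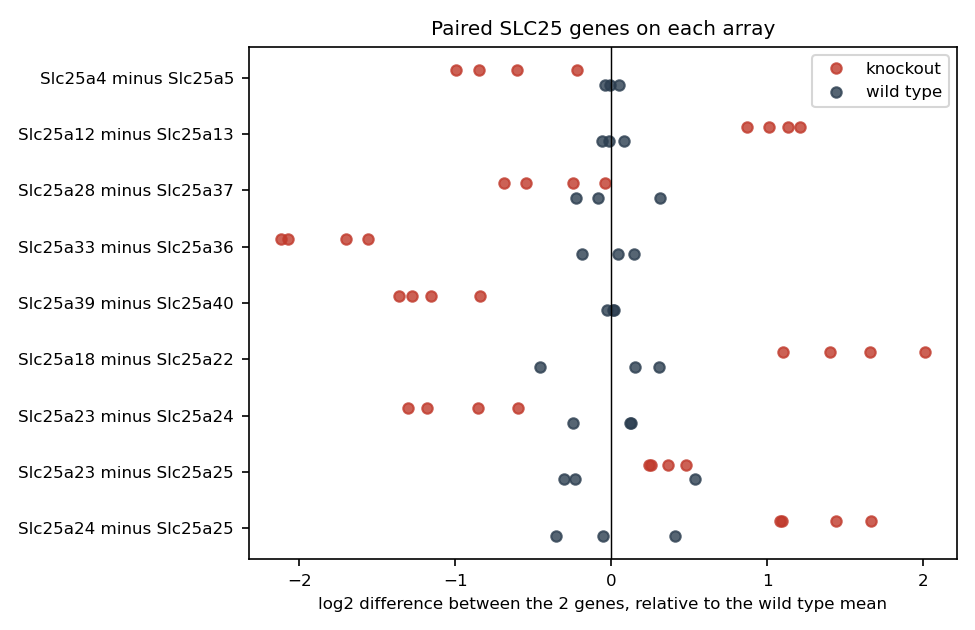
For 9 pairs of related SLC25 genes, the log2 difference between both genes on an array is plotted on the x axis relative to the mean of the wild type arrays, with knockout arrays in red above wild type arrays in dark blue. Knockout and wild type arrays do not overlap in the 6 pairs that differed, and they overlap for Slc25a28 minus Slc25a37 and Slc25a23 minus Slc25a25; for Slc25a4 minus Slc25a5 the knockout arrays lie below the wild type arrays with Mutant_175 farthest left.

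Genes that act with the carriers were read in the same fit, and over all genes tested 25.8% were lower and 16.3% higher. ATP synthase uses the ADP and phosphate that the carriers supply. Of the 16 genes listed for it, 15 were lower and 0 higher, with a median of -0.69. The list and its lower genes include the inhibitory factor Atpif1 (-0.39). The lower genes were led by Atp5c1 (-1.15, adjusted p = 0.0020), Atp5e (-0.85, adjusted p = 0.0021) and Atp5g1 (-0.86, adjusted p = 0.0021). Of the 7 genes of the carnitine shuttle, 4 were lower and 2 higher. Cpt2, which rebuilds acyl-CoA in the matrix, was lower at -1.95 (adjusted p = 0.00054), the plasma membrane carnitine transporter Slc22a5 at -1.12 (adjusted p = 0.00058) and the carnitine acetyltransferase Crat at -0.95 (adjusted p = 0.0025). Cpt1a (0.75, adjusted p = 0.019) and Cpt1c (1.09, adjusted p = 0.012) were the higher genes. Cpt1b gave -0.34 and was not called (adjusted p = 0.20), and Slc25a20 was not called either.

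Of the 4 malate-aspartate shuttle enzymes 3 were lower and 0 higher, with a median of -0.85, namely Mdh2 (-0.91, adjusted p = 0.0032), Got1 (-1.04, adjusted p = 0.0052) and Mdh1 (-0.79, adjusted p = 0.0081). The shuttle's carriers Slc25a11 and Slc25a13 were lower too, and Slc25a12 was not called. Of 7 heme and iron-sulfur genes 6 were lower and 0 higher, with a median of -1.07. Alas1, which makes the first heme precursor, was lower at -1.22 (adjusted p = 0.00036), and the cysteine desulfurase Nfs1 at -1.10 (adjusted p = 0.00049). Slc25a38 and Slc25a28, which supply these pathways, fell by 0.65 and fell by 0.36.

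Of 5 outer membrane and permeability genes 3 were lower and 1 higher. Ppif, the matrix cyclophilin that regulates the permeability transition, was lower at -2.26 (adjusted p = 4.9e-05), the outer membrane channel Vdac1 was lower at -0.99 (adjusted p = 0.0054), and the outer membrane protein Tspo was higher by 1.42 (adjusted p = 0.00024). Of 10 genes for the import of carrier proteins 3 were lower (30.0%) and 0 higher, with a median of -0.25. The share lower was near the 25.8% over all genes tested. The lower genes were Agk (-1.03, adjusted p = 0.00057) and Timm29 (-0.86, adjusted p = 0.0018), both subunits of the inner membrane carrier translocase, and the outer membrane receptor Tomm70a (-0.53, adjusted p = 0.0055). Of 18 other mitochondrial transport genes 6 were lower (33.3%) and 4 higher (22.2%). Both shares were near those over all genes tested, 25.8% lower and 16.3% higher. Abcb8 (-1.18, adjusted p = 0.00032) and Abcb6 (-0.93, adjusted p = 0.0024) were lower and the sideroflexin Sfxn3 was higher (1.17, adjusted p = 0.00080).

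Carriers of the same protein family under other names gave 3 higher and 0 lower of 4 tested. Ucp2 was higher by 0.91 (adjusted p = 0.0027), Ucp3 by 0.52 (adjusted p = 0.024) and Mtch1 by 0.43 (adjusted p = 0.025), while Mtch2 gave -0.32 and was not called, and Ucp1 did not pass the filter on dim probes. Ucp2 and Ucp3 are uncoupling proteins, and Mtch1 and Mtch2 sit in the outer membrane. Of 4 genes of proline synthesis and ornithine use, Aldh18a1 was higher (1.01, adjusted p = 0.047) and Oat lower (-0.70, adjusted p = 0.0061). Pycr1, the last enzyme of proline synthesis, was well above background on all knockout arrays and on 0 wild type arrays. It passed the filter on dim probes only through the knockout arrays, so no p-value is given for it. Its signal was at least 5.94-fold higher in knockout hearts. That bound divides the knockout mean by a wild type mean in which each array takes the larger of the probe's signal and the dimmest signal that still counted as well above background there. Of 3 mitochondrial folate enzymes 2 were higher, Mthfd2 (3.09, adjusted p = 0.00028) and Mthfd1l (1.90, adjusted p = 0.00042). Ornithine carriers gave -1.51 (Slc25a2) and -0.38 (Slc25a15, not called), and the folate carrier Slc25a32 was not called (0.02).

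**Figure D5:**
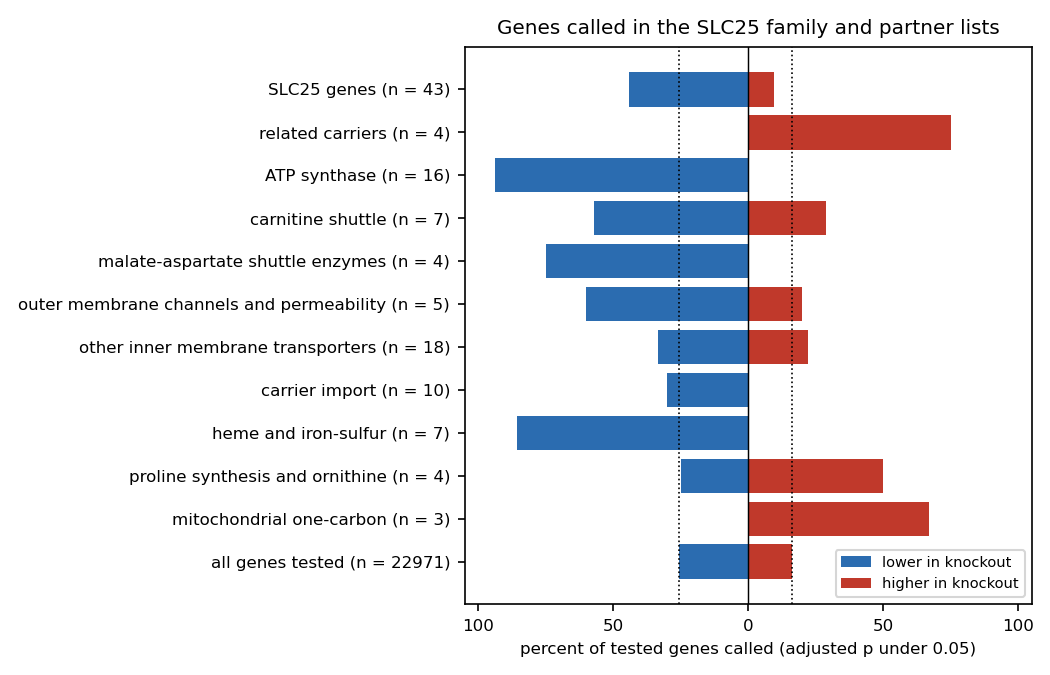
Bars give the percent of tested genes called lower (left, blue) and higher (right, red) in knockout hearts for the SLC25 genes, for lists of genes that act with them and for all genes tested, and dotted lines repeat the values of all genes (25.8% lower, 16.3% higher). The SLC25 bar reaches 44.2% lower and 9.3% higher, and the ATP synthase bar 93.8% lower. With spike-in scaling 7.44% of all genes were lower and 37.2% higher.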

How the data were processed

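The 7 arrays, 4 knockout and 3 wild type, were grouped by the genotype in their labels. Per the labels' protocols, total RNA was labelled with Cy3 with spike-in RNA added. Per the file headers, the authors extracted spot intensity with Agilent Feature Extraction 10.7.3.1, and its processed signal (intensity after background correction, not log-transformed) was used as deposited, with the files' flags and mm9 probe positions. The authors' deposited table of intensity values was an alternative: 99.6% of its cells came within 0.01 (log2) of the scanner values. Its scale was linear and it was not centred, with column medians of 65.5, 83.3, 80.9 and 61.1 in the knockout arrays and 47.7, 45.9 and 50.8 in the wild type arrays.

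Outlier spots (82 to 146 of 59305 per array) were left out, spots of a probe were averaged, and log2 signal minus the array's 75th percentile was used. A probe was kept if 3 or more arrays had it well above background (34481, 60.9% of 56605), with the brightest kept probe per gene. Other genes were named through accessions in the RefSeq gene list of GRCm38.p6 (32994 probes matched), and members by the name on the array. limma 3.58.1 (lmFit, eBayes) in R 4.3.3 with data.table (version 1.17.8) fitted the 7 arrays with group as the only term, and p-values were adjusted (Benjamini-Hochberg) over 22971 genes. All arrays lie on 1 slide with 1 scan. Pairs of carriers used an exact permutation test. The groups share no replicate numbers, so nothing was paired. Figures were drawn with matplotlib 3.10.9, and the fit was tested on simulated data.

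The members, substrate classes, pairs and lists were chosen with earlier results of these data known. Values on every array were given for Slc25a4, Slc25a5, Slc25a3, Slc25a20, Slc25a12 and Slc25a13, and for up to 3 called genes with the largest change per class and direction provided that the brighter group was well above background throughout. Slc25a1, Slc25a17 and Slc25a34, and Cpt1a, Cpt1b and Cpt1c of the carnitine shuttle, were added after their values were seen. Up to 3 called genes with the smallest p were named per list, and Aldh18a1 and Oat fall under that rule. Some genes that these rules name are counted but not reported here. Alternatives were quantile normalization, median scaling, scaling to 7 spike-in probes, a percentile restricted to probes well above background everywhere, normexp (offset 50) with quantile normalization, the deposited values, a stricter filter or none, averaging each gene's probes, eBayes with trend and robust settings, and leaving out each array.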

Additional observations from a re-analysis of the deposited data

Results flagged for a closer look

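Of the 43 SLC25 genes screened, 2 had a knockout array whose gap to the nearest other knockout array was above the critical value of Dixon's test for 4 values, where chance flags about 1 in 20 groups. The gaps were computed on log2 values, and the signals in brackets are on the linear scale. In Slc25a17, Mutant_187 lay below the other knockout arrays, with a gap of 0.944 of the group's range (0.950, against 2.81 to 2.995 in the other knockout arrays and 0.796 to 2.33 in the wild type arrays). In Slc25a20, Mutant_175 lay above the other knockout arrays, with a gap of 0.832 of the range (11.4, against 5.51 to 6.23 in the other knockout arrays and 5.16 to 5.78 in the wild type arrays).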

How the results depend on the processing

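Scaling to spike-in RNA gave 14 SLC25 genes higher and 6 lower, and a median of 0.20. It moved the median of all genes to 0.44. Of all calls 83.3% were then higher, against 38.7% at the main setting, 44.96% after quantile normalization and 49.5% with the percentile over probes well above background. Signs reversed under spike-in scaling for Slc25a12 (0.14), Slc25a14 (0.27), Slc25a15 (0.19), Slc25a23 (0.54), Slc25a25 (0.20), Slc25a28 (0.20), Slc25a30 (0.50), Slc25a36 (0.25), Slc25a44 (0.33), Slc25a48 (0.018) and Slc25a51 (0.13). Lower calls lost under spike-in scaling with the sign kept included Slc25a3 (-0.19), Slc25a4 (-0.04), Slc25a11 (-0.44), Slc25a16 (-0.42) and Slc25a22 (-0.41). The others were Slc25a27 (-0.37), Slc25a38 (-0.08), Slc25a39 (-0.014), Slc25a46 (-0.02) and Slc25a47 (-0.17). Over these genes adjusted p was 0.078 to 0.96 (limma). By construction this scaling adds a near constant to each gene. The family's median was -0.24 after quantile normalization, -0.25 with the percentile over probes well above background and -0.21 with normexp. Slc25a23 reversed under these settings (0.017, 0.085 and 0.0076), as did Slc25a30 with that percentile (0.048). With the mean over probes Slc25a30 (0.32) and Slc25a32 (-0.20) reversed, and 0 pairs passed. With median scaling Slc25a37 reversed (-0.0019). The cause was not tested.

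With each array left out in turn, the lower members numbered 12 (without Wild Type_183) to 22 (without Mutant_175), the higher members 4 to 5, and the median was -0.41 to -0.33. Reversals then occurred in genes near 0: Slc25a10 (-0.15 to 0.15), Slc25a23 (-0.083 to 0.0034), Slc25a30 (-0.27 to 0.16), Slc25a32 (-0.0083 to 0.055), Slc25a37 (-0.11 to 0.13) and Slc25a5 (-0.082 to 0.13). Leaving out an array leaves too few splits for a pair to pass, so the count of pairs has no value there. No paired analysis was possible because the groups share no replicate numbers. Signals near background, as in Slc25a2, limit the size of a fold change.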
